A study of Mus musculus with 6 samples.

Results

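Translation initiation and elongation factors are the proteins that bring the ribosome to the start codon of a messenger RNA and then carry it along the coding sequence. They were measured here as RNA levels in mouse embryonic stem cells that either lacked or kept the gene Max. Genes were taken by name from the GENCODE M21 annotation of GRCm38: protein-coding genes whose symbol begins Eif1 to Eif5, Eef1 or Eef2, leaving out Eif2s3x, Eif2s3y, Eif1a, the eIF2 kinases, Eef2k and genes with kmt in the symbol. This gave 54 genes of the 56689 identifiers listed. No measured value entered the rule. The study had 3 Max-KO libraries, from embryonic stem cells of genotype Max-/-, and 3 wild-type (WT) libraries, and all 6 came from the C57BL/6 strain. No treatment, age or time point is given in the labels, nor how the Max allele was made, how many clones the knockout line comprised, or whether replicates were cultured separately. The p-values therefore cover the spread among these 6 libraries, which may be technical. MAX is the partner through which MYC proteins bind DNA at the E-box CACGTG, and it also belongs to the repressor complex PRC1.6. In embryonic stem cells MYC and MAX are known as regulators of growth genes, translation factors among them.

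The factors act in order. eIF1, eIF1A and eIF5 help the small ribosomal subunit find the start codon, eIF2 delivers the initiator transfer RNA as a GTP-bound complex, and eIF2B recharges eIF2 with GTP. eIF3 is the large scaffold on the small subunit, and the eIF4 proteins bind the mRNA cap and unwind the leader. eIF5B joins the large subunit. eEF1 then delivers each aminoacyl transfer RNA, eEF2 moves the ribosome by a codon, and eIF5A helps the ribosome through stretches where it stalls.

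The values were FPKM, fragments scaled to transcript length and library size, so they are levels per length and relative to the library. Summed FPKM was 645169 to 658361 in the Max-KO libraries, against 743406 to 774405 in the WT libraries, and the estimated depth was 21.0 to 28.4 M fragments. Correlations of log2 values across genes were 0.978 to 0.985 within a group and 0.891 to 0.908 between groups. Max itself was listed at 35.8, 39.6 and 43.4 FPKM in Max-KO replicates 1 to 3, against 41.6, 50.2 and 42.3 FPKM in WT replicates 1 to 3. The groups overlapped, and the log2 difference of −0.17 ± 0.10 (SE, 95% interval −0.40 to 0.06) was not called by limma (adjusted p = 0.168), though it was called at −0.36 (adjusted p = 0.0135) with median-ratio scaling. The labels do not say which part of the gene was removed, so the level over the whole gene does not check the genotype. In such bulk samples, fewer cells with a transcript and less of it per cell cannot be told apart.

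Most translation factors were lower without Max. Of the 51 that were tested, 39 fell in Max-KO cells (76.5%), where 23.2% of all 14661 genes tested fell, and 4 rose (7.84%), where 43.0% of all genes rose. Calls in either direction covered 66.2% of all genes. With a filter at 5 FPKM, 39 of 50 factors fell, beside 27.5% of all genes, and 3 rose, beside 42.6%. The test was limma on log2(FPKM + 1) with Benjamini-Hochberg adjustment over all genes and a call at adjusted p under 0.05. The other 8 were not called, 5 with a negative and 3 with a positive difference. The median log2 difference of the factors was −0.46, beside 0.21 for all genes tested, and 47 of the 51 lay below that all-gene median. With quantile normalization the medians were −0.40 for the factors and −0.02 for all genes, and 38 of the 51 lay below. In 39 factors every Max-KO library was below every WT library, which held for 25.7% of all genes, and in 5 every Max-KO library was above, against 46.3% of all genes. Only 6 factors fell at least 2-fold (11.8%, against 4.86% of all genes): Eif5a, Eif1ax, Eef1d, Eef1b2, Eef2 and Eif4b. This list also depends on the scaling. With quantile normalization only Eif1ax (−1.26) of the 6 still fell 2-fold. Eif5a was then at −0.73, Eef1d at −0.98, Eef1b2 at −0.70, Eef2 at −0.50 and Eif4b at −0.89. Eif3j2 (−1.16) and Eef1e1 (−1.06) passed 2-fold there instead. The size of the shift depends on how libraries are scaled. With median-ratio scaling 44 factors fell and 4 rose, beside 4631 and 4890 of all 14661 genes. With FPKM rescaled to TPM 30 fell and 7 rose, beside 2365 and 7883 of all genes. With quantile normalization 32 fell and 4 rose, beside 4831 and 4225 of all genes. The share of all calls that were higher was 64.9% as deposited and 51.4%, 76.9% and 46.7% under those scalings.

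**Figure D1:**
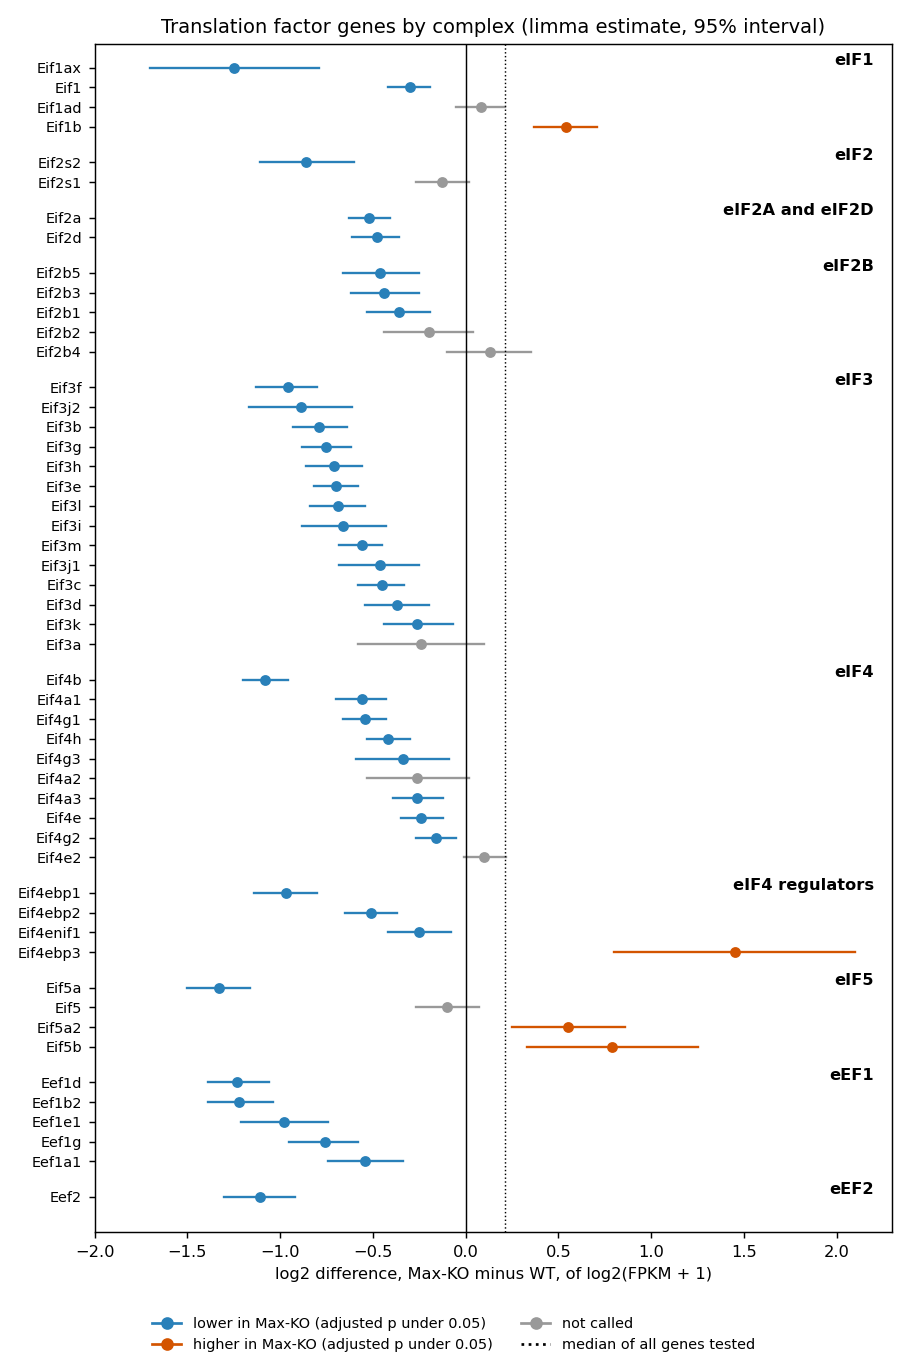
The plot gives the log2 difference, Max-KO minus WT, of log2(FPKM + 1) for the 51 tested factors, grouped by complex, with 95% intervals (n = 3 libraries each). The 39 factors in blue were lower in Max-KO, the 4 in orange higher and the 8 in grey not called; the dotted line marks the median of all genes, 0.21.

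Nearly all of these genes were well expressed. Both group means were at least 10 FPKM in 48 of the 54, and 30 had a WT mean of at least 100 FPKM. Summed over all 54, the factors made up 2.29 ± 0.0135% of the library in Max-KO cells and 3.10 ± 0.153% in WT cells (SD, n = 3 each). Eef1a1, the most abundant, was a large part of that. Without it the shares were 1.34 ± 0.0075% in Max-KO cells and 1.90 ± 0.0522% in WT cells. The 3 genes under the filter of a mean of 1 FPKM in at least 1 group were Eef1a2, the muscle and neuron form of eEF1A, Eif4e1b, an oocyte cap-binding protein, and Eif4e3, a cap-binding relative of eIF4E. Eef1a2 was listed at 0.21 to 0.36 FPKM in Max-KO libraries and 0.61 to 1.22 FPKM in WT libraries. Eif4e1b was listed at 0 to 0.02 FPKM in Max-KO libraries and 0.16 to 0.83 FPKM in WT libraries. Eif4e3 was listed at 0.05 to 0.14 FPKM in Max-KO libraries and 0.48 to 0.51 FPKM in WT libraries. For all 3 the lowest WT value was above the highest Max-KO value, and all 3 were left out of the test.

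**Figure D2:**
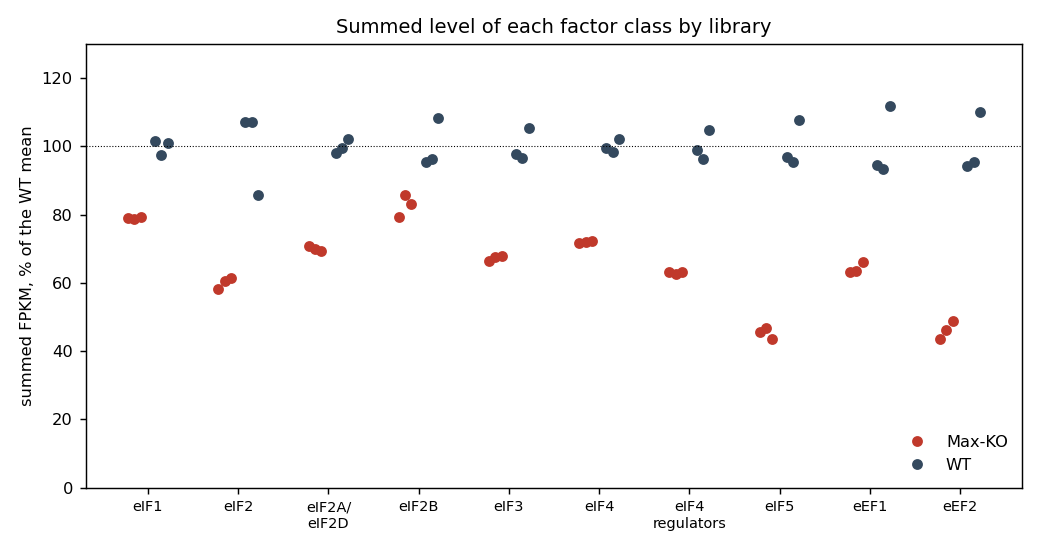
The plot shows the summed FPKM of each complex in each library as a percent of the WT mean, with Max-KO libraries left and WT libraries right. The Max-KO mean lay between 45.4% of the WT mean for the eIF5 group and 82.6% for eIF2B, and for all 54 genes it was 63.6%. Most of the eIF5 sum was Eif5a, at 735.8 of 911.7 FPKM in Max-KO cells and 1853.6 of 2008.7 FPKM in WT cells. By gene, 1 of the 4 in that group fell and 2 rose, with a median log2 difference of 0.23.

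Promoters of several of these genes hold the E-box, and 4 are shown as examples from factors with a called change, 3 lower and 1 higher in Max-KO. Other factors with a called change also hold it and are not shown. Each is the 150 bases on the plus strand of GRCm38.p6 up to the start of the annotated exon, from the RefSeq promoter table, with every CACGTG in capitals. The windows are chr10:81176481-81176630 for Eef2, chr7:108934265-108934414 for Eif3f, chr16:20672573-20672722 for Eif4g1 and chr3:28781126-28781275 for Eif5a2.
Eef2: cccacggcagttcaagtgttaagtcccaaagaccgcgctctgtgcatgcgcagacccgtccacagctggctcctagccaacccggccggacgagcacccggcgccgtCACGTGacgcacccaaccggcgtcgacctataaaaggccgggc
Eif3f: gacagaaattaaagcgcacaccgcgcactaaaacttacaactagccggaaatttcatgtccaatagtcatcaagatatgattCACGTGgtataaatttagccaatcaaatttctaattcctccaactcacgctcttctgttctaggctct
Eif4g1: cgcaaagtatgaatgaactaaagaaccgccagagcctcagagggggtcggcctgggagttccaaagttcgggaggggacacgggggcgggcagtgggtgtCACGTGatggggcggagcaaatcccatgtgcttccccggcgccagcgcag
Eif5a2: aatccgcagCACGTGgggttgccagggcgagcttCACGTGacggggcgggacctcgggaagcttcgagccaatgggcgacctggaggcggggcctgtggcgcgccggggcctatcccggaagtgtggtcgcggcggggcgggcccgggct
The copy shown stands 43 bases before the RefSeq start in Eef2, 68 in Eif3f and 54 in Eif4g1, and Eif5a2 has copies at 142 and 117 bases before it. Eif4g1 has a further copy 15 bases after the RefSeq start, outside the sequence shown. A match is a description of the letters in the window and not a bound site.

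The eIF1 group held a large fall and a rise. Eif1ax encodes eIF1A, the scanning factor in the acceptor site of the small subunit. Eif1ax was listed at 28.5, 41.6 and 30.8 FPKM in Max-KO replicates 1 to 3, against 101, 71.45 and 70.85 FPKM in WT replicates 1 to 3. It fell by 1.25 on the log2 scale (± 0.19 SE, limma adjusted p = 0.00127), although its libraries were spread within both groups. Eif1, the start-codon selection factor itself, was listed at 345, 333 and 345 FPKM in Max-KO replicates 1 to 3, against 410.2, 418 and 435 FPKM in WT replicates 1 to 3. All Max-KO libraries were below all WT libraries, and the log2 difference was −0.30 ± 0.05 (SE; limma adjusted p = 0.00135). The call was lost when FPKM were rescaled to TPM (−0.09, adjusted p = 0.0836) or quantile normalized (−0.01, adjusted p = 0.87). Its paralog Eif1b went the other way. Eif1b was listed at 31.3, 28.2 and 31.96 FPKM in Max-KO replicates 1 to 3, against 20.1, 19.97 and 21.8 FPKM in WT replicates 1 to 3. It rose by 0.54 on the log2 scale (± 0.07 SE, limma adjusted p = 0.000566), with no overlap between the groups. The difference stayed positive under every scaling run. Eif1ad, a nuclear protein with an eIF1A-like domain, averaged 33.1 ± 1.18 FPKM in Max-KO cells and 31.2 ± 0.632 FPKM in WT cells (SD, n = 3 each). Its difference of 0.08 was not called, and it was −0.11 with median-ratio scaling and −0.01 with quantile normalization. Exons of Banf1 on the opposite strand cover 15.3% of its exonic bases. The summed level of the group was 438.2 ± 1.24 FPKM in Max-KO cells and 554.3 ± 11.9 FPKM in WT cells (SD, n = 3 each).

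Of the eIF2 subunits, beta fell and alpha was not called, and the gamma subunit genes were left out by the rule. Eif2s2 encodes the beta subunit. Eif2s2 was listed at 214, 217 and 229 FPKM in Max-KO replicates 1 to 3, against 435, 437 and 334 FPKM in WT replicates 1 to 3. It fell by 0.86 on the log2 scale (± 0.11 SE, limma adjusted p = 0.000421). Eif2s1 encodes the alpha subunit, whose phosphorylation lowers initiation under stress. Eif2s1 was listed at 59.4, 66.8 and 59.6 FPKM in Max-KO replicates 1 to 3, against 68.2, 66.6 and 68.4 FPKM in WT replicates 1 to 3. The groups overlapped and the difference of −0.13 ± 0.06 (SE) was not called by limma (adjusted p = 0.1); it was 0.08 after rescaling to TPM. Eif2a and Eif2d, which encode separate factors able to deliver transfer RNA outside the eIF2 route, both fell. Eif2a was listed at 52.1, 51.5 and 50.5 FPKM in Max-KO replicates 1 to 3, against 73.4, 74.55 and 73.8 FPKM in WT replicates 1 to 3, a log2 difference of −0.52 ± 0.05 (SE; limma adjusted p = 8.46e-05). Eif2d was listed at 39.2, 39.05 and 39.2 FPKM in Max-KO replicates 1 to 3, against 53.4, 54.1 and 58.1 FPKM in WT replicates 1 to 3, a log2 difference of −0.48 ± 0.05 (SE; limma adjusted p = 0.000245). The replicates of both genes were close together and the groups were apart.

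In eIF2B, the exchange factor for eIF2, 3 of 5 subunits fell. The largest fall was that of Eif2b5, the catalytic epsilon subunit. Eif2b5 was listed at 67.0, 61.8 and 62.2 FPKM in Max-KO replicates 1 to 3, against 81.9, 82.1 and 100.02 FPKM in WT replicates 1 to 3. Its log2 difference was −0.46 ± 0.09 (SE; limma adjusted p = 0.00309). Eif2b3 (−0.44) and Eif2b1 (−0.36), the gamma and alpha subunits, also fell. Eif2b1 lost its call after rescaling to TPM (−0.15, limma adjusted p = 0.107), which left 2 of the 5 lower. Eif2b2, the beta subunit, averaged 75.3 ± 6.77 FPKM in Max-KO cells and 86.8 ± 9.44 FPKM in WT cells (SD, n = 3 each), a difference of −0.20 that was not called by limma (adjusted p = 0.114) and was 0.01 after rescaling to TPM. Eif2b4, the delta subunit, had the only positive difference of the 5. Eif2b4 was listed at 45.6, 54.5 and 47.0 FPKM in Max-KO replicates 1 to 3, against 47.0, 40.2 and 47.2 FPKM in WT replicates 1 to 3. The groups overlapped, and the difference of 0.13 ± 0.09 (SE) was not called by limma (adjusted p = 0.268). It was −0.07 with median-ratio scaling and 0.34 (adjusted p = 0.014) after rescaling to TPM. The summed eIF2B level was 256.8 ± 10.1 FPKM in Max-KO cells, 82.6% of the 310.8 ± 22.5 FPKM in WT cells (SD, n = 3 each), the smallest drop in summed level among the 10 groups of factors.

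eIF3 fell almost as a whole: 13 of its 14 genes were lower in Max-KO cells, and the median log2 difference was −0.67, or −0.88 relative to all genes. The number lower was 14 under median-ratio scaling, 11 under TPM and 12 under quantile normalization. Eif3f, a regulatory subunit with a deubiquitinase-like MPN fold, had the largest fall. Eif3f was listed at 56.3, 58.4 and 63.5 FPKM in Max-KO replicates 1 to 3, against 112, 113 and 125.25 FPKM in WT replicates 1 to 3. The log2 difference was −0.96 ± 0.07 (SE; limma adjusted p = 3.48e-05), and the highest Max-KO library was far below the lowest WT library. Eif3b, the scaffold of the yeast-conserved core, averaged 132.2 ± 1.33 FPKM in Max-KO cells and 229.2 ± 15.8 FPKM in WT cells (SD, n = 3 each), a difference of −0.79. The core subunits Eif3g (−0.75) and Eif3i (−0.66) also fell. The octamer subunits Eif3h (−0.71), Eif3e (−0.70), Eif3l (−0.69), Eif3m (−0.56), Eif3c (−0.45) and Eif3k (−0.26) fell by differing amounts, and Eif3k was 0.03 with quantile normalization and −0.05 after rescaling to TPM, called in neither. Eif3d, a peripheral subunit, fell by 0.37. Eif3a, the largest subunit and the frame of the complex, was the exception. Eif3a was listed at 137, 136 and 148 FPKM in Max-KO replicates 1 to 3, against 186, 188 and 129.69 FPKM in WT replicates 1 to 3. WT replicate 3 was below all 3 Max-KO libraries while WT replicates 1 and 2 were above them, and the difference of −0.24 ± 0.14 (SE) was not called by limma (adjusted p = 0.183). Without WT replicate 3 it was −0.41 (limma adjusted p = 8.75e-04).

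The loosely bound subunit eIF3j comes from a pair of near-identical mouse genes that can share reads, so the split between them is uncertain. Eif3j1 was listed at 16.3, 16.1 and 15.7 FPKM in Max-KO replicates 1 to 3, against 23.5, 24.6 and 19.65 FPKM in WT replicates 1 to 3, with a log2 difference of −0.46 ± 0.09 (SE; limma adjusted p = 0.00353). Eif3j2 was listed at 10.45, 8.19 and 7.65 FPKM in Max-KO replicates 1 to 3, against 18.2, 16.9 and 15.95 FPKM in WT replicates 1 to 3, with a log2 difference of −0.89 ± 0.12 (SE; limma adjusted p = 0.000539). Both fell, and Max-KO and WT libraries did not overlap in either, but Eif3j1 lost its call after rescaling to TPM (−0.26, limma adjusted p = 0.0561). Exons of Spg11 on the opposite strand cover 19.0% of the exonic bases of Eif3j1, and the strandedness of the libraries is not given here. The 12 other subunits are held in the complex together. The SD of their log2 levels within a library was 0.50 to 0.53 in the Max-KO libraries and 0.38 to 0.48 in the WT libraries, and the SD of their log2 differences between the groups was 0.22. The 14 genes summed to 1832.4 ± 19.6 FPKM in Max-KO cells, 67.3% of the 2723.7 ± 129.9 FPKM in WT cells (SD, n = 3 each).

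**Figure D3:**
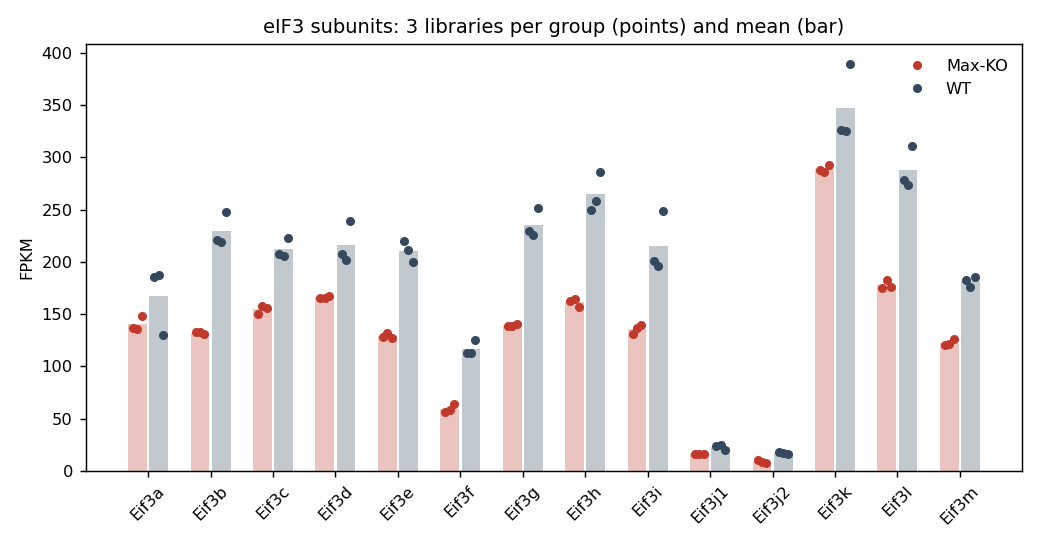
The plot gives the FPKM of the 14 eIF3 genes in each library (points) and the group mean (bars), with Max-KO left of WT. The Max-KO libraries lie below the WT libraries in every gene but Eif3a, where WT replicate 3 (129.69 FPKM) falls below them.

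In eIF4, which binds the cap and unwinds the leader, 8 of the 10 tested genes fell, but most by little: the median was −0.30. Only 4 fell after rescaling to TPM or with quantile normalization, and 1 rose under each. Eif4b, which stimulates the helicase, stood apart. Eif4b was listed at 120.19, 125.1 and 125.43 FPKM in Max-KO replicates 1 to 3, against 257, 257 and 275 FPKM in WT replicates 1 to 3. It fell by 1.08 on the log2 scale (± 0.05 SE, limma adjusted p = 6.8e-06). Eif4a1 is the main helicase and the most abundant initiation factor gene here. Eif4a1 was listed at 1459.58, 1440.25 and 1424 FPKM in Max-KO replicates 1 to 3, against 2094, 2062 and 2244 FPKM in WT replicates 1 to 3. It fell by 0.56 (± 0.06 SE, limma adjusted p = 0.000131), but the difference was −0.01 with quantile normalization. Its paralog Eif4a2 was listed at 281, 300.2 and 319.98 FPKM in Max-KO replicates 1 to 3, against 394, 393 and 298 FPKM in WT replicates 1 to 3. WT replicate 3 lay among the Max-KO libraries, and the difference of −0.26 ± 0.12 (SE) was not called by limma (adjusted p = 0.0871). It was −0.39 (adjusted p = 0.00213) without WT replicate 3 and 0.05 with quantile normalization. Eif4a3, the helicase of the exon junction complex, fell by 0.26, which was −0.04 after rescaling to TPM. Eif4h, a relative of eIF4B, fell by 0.42.

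The cap-binding protein eIF4E fell by little. Eif4e was listed at 94.9, 97.9 and 91.8 FPKM in Max-KO replicates 1 to 3, against 115, 110.14 and 110 FPKM in WT replicates 1 to 3, with a log2 difference of −0.24 ± 0.05 (SE; limma adjusted p = 0.00491). The call was lost after rescaling to TPM (−0.02, adjusted p = 0.717) and with quantile normalization (−0.13, adjusted p = 0.0706). Eif4e2, the repressive cap-binding paralog, was listed at 100.38, 98.4 and 100.25 FPKM in Max-KO replicates 1 to 3, against 91.1, 91.1 and 96.3 FPKM in WT replicates 1 to 3. All Max-KO libraries of Eif4e2 were above all WT libraries, but the difference of 0.10 ± 0.05 (SE) was not called by limma (adjusted p = 0.0961). It was called with a positive difference of 0.32 after rescaling to TPM and 0.19 with quantile normalization, and was −0.09 with median-ratio scaling. The scaffolds eIF4G join the cap to the ribosome through eIF3. Eif4g1, the main one, was listed at 186, 183 and 191 FPKM in Max-KO replicates 1 to 3, against 265, 271 and 282 FPKM in WT replicates 1 to 3, with a log2 difference of −0.54 ± 0.05 (SE; limma adjusted p = 8.61e-05). Eif4g2, which lacks the eIF4E-binding part of the scaffold, was listed at 273, 282 and 274 FPKM in Max-KO replicates 1 to 3, against 314, 304 and 311 FPKM in WT replicates 1 to 3. The groups were apart and the difference of −0.16 ± 0.05 (SE) was called (limma adjusted p = 0.0161), but it was 0.05 after rescaling to TPM and 0.10 with quantile normalization. Eif4g3 was listed at 13.2, 14.0 and 16.6 FPKM in Max-KO replicates 1 to 3, against 19.7, 19.6 and 16.9 FPKM in WT replicates 1 to 3, with a log2 difference of −0.34 ± 0.11 (SE; limma adjusted p = 0.0244) that was −0.14 and not called (adjusted p = 0.292) after rescaling to TPM.

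The 4 eIF4 regulators were the eIF4E-binding proteins, which block the scaffold from the cap-binding protein until mTORC1 phosphorylates them, and the eIF4E transporter. Eif4ebp1 was listed at 72.25, 68.2 and 69.1 FPKM in Max-KO replicates 1 to 3, against 135, 127 and 151 FPKM in WT replicates 1 to 3. It fell by 0.97 on the log2 scale (± 0.07 SE, limma adjusted p = 4.04e-05). Eif4ebp2 was listed at 34.5, 35.6 and 34.3 FPKM in Max-KO replicates 1 to 3, against 50.01, 47.4 and 52.7 FPKM in WT replicates 1 to 3. It fell by 0.51 (± 0.06 SE, limma adjusted p = 0.000269), and in both genes the groups were apart. Eif4enif1, the transporter, averaged 46.3 ± 1.88 FPKM in Max-KO cells and 55.2 ± 4.42 FPKM in WT cells (SD, n = 3 each), a difference of −0.25 that was −0.04 and not called by limma (adjusted p = 0.683) after rescaling to TPM. Eif4ebp3 was the exception. Eif4ebp3 was listed at 2.19, 2.68 and 2.46 FPKM in Max-KO replicates 1 to 3, against 0.99, 0 and 0 FPKM in WT replicates 1 to 3. It rose by 1.45 on the log2 scale (± 0.27 SE, limma adjusted p = 0.0028), but it passed the filter only through its Max-KO level, so its direction was fixed by the filter. A further gene on the same strand, AC115631.1, shares 67.3% of its exonic bases and averaged 8.5 FPKM in Max-KO cells and 6.15 FPKM in WT cells, so the value of Eif4ebp3 is uncertain.

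With FPKM as deposited, the eIF5 group held the largest fall and 2 of the 4 rises. Eif5a (chromosome 11, 69916714 to 69921958, minus strand) encodes eIF5A, the hypusine-bearing elongation factor. Eif5a was listed at 744, 762 and 701 FPKM in Max-KO replicates 1 to 3, against 1776, 1755 and 2029.98 FPKM in WT replicates 1 to 3. It fell by 1.33 on the log2 scale (± 0.07 SE, limma adjusted p = 1.15e-05). In FPKM as deposited, Max-KO cells held 39.7% of the WT level. With quantile normalization the fall of Eif5a was smaller (−0.73, limma adjusted p = 2.5e-05), and that of Eif1ax (−1.26) was larger. Eif5a2, a paralog at a far lower level, rose. Eif5a2 was listed at 7.22, 9.22 and 9.73 FPKM in Max-KO replicates 1 to 3, against 5.76, 6.06 and 4.96 FPKM in WT replicates 1 to 3. The log2 difference was 0.55 ± 0.13 (SE; limma adjusted p = 0.00736), with no overlap, and the call was lost with quantile normalization (0.22, adjusted p = 0.165). Eif5b, the GTPase that joins the subunits, also rose. Eif5b was listed at 61.45, 58.8 and 62.9 FPKM in Max-KO replicates 1 to 3, against 41.4, 41.1 and 24.8 FPKM in WT replicates 1 to 3. The log2 difference was 0.79 ± 0.19 (SE; limma adjusted p = 0.0102). WT replicate 3 was well below the other WT libraries, and without it the difference was 0.55 (limma adjusted p = 2.72e-04). Exons of Rev1 on the opposite strand cover 16.8% of the exonic bases of Eif5b. Eif5, the GTPase activator of eIF2, averaged 106.1 ± 3.77 FPKM in Max-KO cells and 113.8 ± 9.7 FPKM in WT cells (SD, n = 3 each). Its difference of −0.10 was not called by limma (adjusted p = 0.265) and was 0.11 after rescaling to TPM and 0.01 with quantile normalization.

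All 5 tested eEF1 genes fell, with a median log2 difference of −0.98, or −1.18 relative to all genes. The exchange subunits of eEF1B, which recharge eEF1A with GTP, had more negative differences than eEF1A itself, a contrast that was not tested. Eef1d, the delta subunit, was listed at 167, 159 and 152 FPKM in Max-KO replicates 1 to 3, against 350.22, 365 and 407 FPKM in WT replicates 1 to 3, with a log2 difference of −1.23 ± 0.07 (SE; limma adjusted p = 1.34e-05). Eef1b2, the exchange subunit eEF1B-alpha, averaged 502.0 ± 2.8 FPKM in Max-KO cells and 1171 ± 107.8 FPKM in WT cells (SD, n = 3 each), a difference of −1.22. Eef1g, the gamma subunit, fell by 0.76, and Eef1e1, a component of the aminoacyl-tRNA synthetase complex despite its name, fell by 0.98. Eef1a1 carries the transfer RNA and had the highest level of all the factors. Eef1a1 was listed at 6102, 6145 and 6450.4 FPKM in Max-KO replicates 1 to 3, against 8578, 8502 and 10215 FPKM in WT replicates 1 to 3. The log2 difference was −0.54 ± 0.08 (SE; limma adjusted p = 0.00115), and the call was lost with quantile normalization (−0.30, adjusted p = 0.104). Reads shared with pseudogene copies could be split in the counting, and the 10 pseudogenes named after the family summed to 1.12 to 3.66 FPKM in Max-KO libraries and 2.23 to 3.81 FPKM in WT libraries. Any copies under other symbols were not counted, so these sums do not bound the shared reads. Eef2 (chromosome 10, 81176631 to 81182498, plus strand) encodes eEF2, the GTPase that moves the ribosome along. Eef2 was listed at 686, 732 and 772 FPKM in Max-KO replicates 1 to 3, against 1489, 1509 and 1739 FPKM in WT replicates 1 to 3. It fell by 1.11 on the log2 scale (± 0.08 SE, limma adjusted p = 3.47e-05). In FPKM as deposited, Max-KO cells held 46.2% of the WT level. With quantile normalization the difference of Eef2 was −0.50 (limma adjusted p = 0.000172).

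Paralogs sit in the same library, so a single scaling factor per library cancels in their ratio, apart from the pseudocount. Quantile normalization does not cancel in this way, and the ratios were not recomputed under it. For the 2 pairs with the widest gaps, the single-gene differences there were smaller in size. They were −0.73 for Eif5a and 0.22 for Eif5a2, and −0.01 for Eif1 and 0.40 for Eif1b. Of 9 pairs compared as log2((FPKM + 1)/(FPKM + 1)), Max-KO and WT ratios were apart in 7. An exact 2-sided permutation test over 3 and 3 libraries gives p = 0.1 for each of these, which is the smallest it allows, and 0.129 after adjustment over the pairs, so no pair could pass 0.05. How often the ratios of other gene pairs were apart was not computed. As single genes, 25.7% of all genes tested were apart with Max-KO lower and 46.3% with Max-KO higher. Among the 9 pairs, the widest gap was Eif5a over Eif5a2. Mean FPKM of Eif5a was 84.4 times that of Eif5a2 in Max-KO cells and 331.4 times in WT cells, a log2 difference of −1.88. Eif1 stood 11.2 times above Eif1b in Max-KO cells and 20.4 times in WT cells (−0.85). In both pairs the more abundant gene fell and the less abundant one rose. Smaller negative differences were found for Eif4ebp1 over Eif4ebp2 (−0.46), Eif4g1 over Eif4g2 (−0.38), Eif4e over Eif4e2 (−0.34) and Eif4a1 over Eif4a2 (−0.31). The sign depends on which gene is put first, so it is not a shared pattern of abundance. Eif4g1 was the less abundant of its pair, at 0.675 times Eif4g2 in Max-KO cells and 0.881 times in WT cells. Both genes fell in the Eif4ebp1 and Eif4ebp2 pair and in the Eif4g1 and Eif4g2 pair. Eif3j1 over Eif3j2 had a positive difference (0.43), and both genes fell. The Eif4a1 to Eif4a2 gap leaned on WT replicate 3. Its log2 ratio was 2.91 there, 2.41 and 2.39 in WT replicates 1 and 2, and 2.37, 2.26 and 2.15 in Max-KO replicates 1 to 3. The groups overlapped for Eif4g1 over Eif4g3 (−0.20, exact p = 0.2, adjusted p = 0.225) and for Eef1a1 over Eef1a2 (−0.01, exact p = 0.6). That last value rests on the pseudocount, because Eef1a2 lies at or below about 1 FPKM: it was 0.73 with a pseudocount of 0.1.

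**Figure D4:**
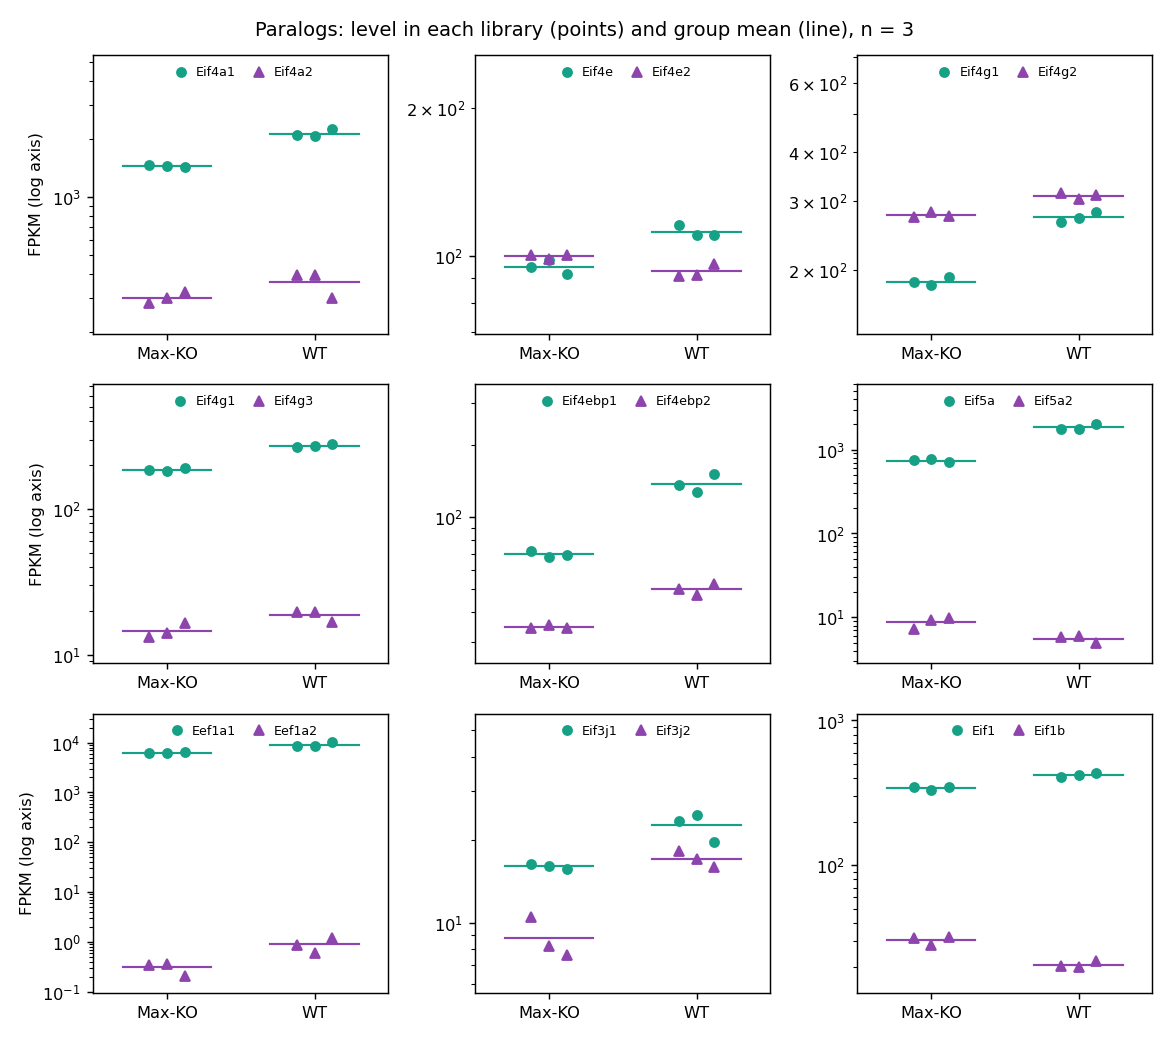
Each panel plots the FPKM of a paralog pair in each library (points, log axis) and the group means (lines), with Max-KO left of WT, n = 3 each. The gap between Eif5a and Eif5a2 is narrower in Max-KO (84.4 times) than in WT (331.4 times).

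**Figure D5:**
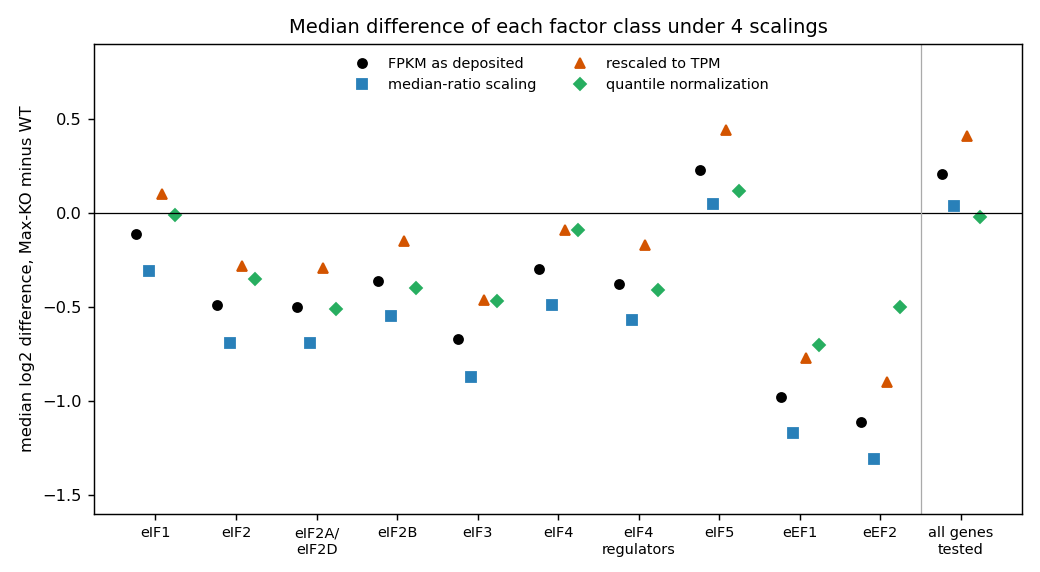
The plot gives the median log2 difference, Max-KO minus WT, of the tested genes of each complex, and of all genes tested at the right, under the deposited FPKM and 3 other scalings. The eIF1 median ranges between −0.31 and 0.10 and the eIF5 median between 0.05 and 0.44, while the medians of the other 8 groups are below 0 under each scaling.

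Genes that work with these factors were read against the same background, in which 23.2% of all genes tested fell and 43.0% rose. Of 9 genes for factor modification and partners, 6 fell (66.7%), and Dph1, Dph6 and Eef2k were not called. Dohh (−1.02) and Dhps (−0.66), the enzymes that make the hypusine of eIF5A, both fell, as did Eif6 (−0.69), which keeps the ribosomal subunits apart. Of 8 genes of termination and recycling, 6 fell (75.0%), led by Mcts1 (−0.45), Gspt1 (−0.42), the GTPase eRF3, and Abce1 (−0.30), which splits the subunits. Gspt2, the paralog of Gspt1, rose (0.40), the 1 rise of the 8 (12.5%). Of 9 mitochondrial translation factors, 4 fell (44.4%), led by Mrrf (−0.90), Tufm (−0.59) and Tsfm (−0.51), and Mtif2 rose (0.24; 11.1%). Of 13 genes of cap, poly(A) and mTORC1 control, 4 fell (30.8%) and 6 rose (46.2%), shares near those of all genes. The largest changes were in Pabpc4 (−1.62), a poly(A)-binding protein, Larp1 (−0.99), which binds terminal oligopyrimidine mRNAs, and Paip1 (0.71), a partner of poly(A)-binding protein. Of 6 genes for the eIF2 kinases and phosphatase, 3 fell and 3 rose, with Eif2ak4 (−0.75), the amino acid sensor GCN2, and Ppp1r15b (−0.38) lower and Eif2ak2 (0.45), the kinase PKR, higher. These are log2 differences from the same limma fit, and each value given above kept its sign under every scaling run. Several calls were lost, however. Under median-ratio scaling and quantile normalization, Gspt2 was at 0.22 and 0.06 (limma adjusted p = 0.0808 and 0.573), Mtif2 at 0.05 and 0.08 (0.571 and 0.364) and Eif2ak2 at 0.28 and 0.12 (0.119 and 0.458). The other eIF2 kinases that rose also lost their calls under those scalings. Eif2ak1 was at 0.11 and 0.09 (limma adjusted p = 0.164 and 0.238). Eif2ak3 was at 0.04 and −0.08 (0.695 and 0.388), so its sign changed. After rescaling to TPM, Ppp1r15a, which fell as deposited, was at −0.05 (limma adjusted p = 0.559), Mcts1 at −0.24 (0.155) and Abce1 at −0.09 (0.405). The other termination genes that fell, Etf1 (0.06, limma adjusted p = 0.425), Hbs1l (−0.01, 0.844) and Pelo (−0.05, 0.55), also lost their calls there. Of the termination and recycling genes, only Gspt1 was still called lower with TPM (−0.21, limma adjusted p = 0.0338).

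Markers of other cell states were summed beside these results, where 43.0% of all genes tested rose. A gene with a WT mean under 1 FPKM could enter the test only through a higher Max-KO mean, so its direction was fixed by the filter. The 8 pluripotency genes summed to 2777.6 to 2867.4 FPKM in Max-KO libraries and 2215.8 to 2294.3 FPKM in WT libraries, and 6 of the 8 rose. All 10 germ cell genes rose, 3 of them (Mov10l1, Taf7l and Tdrd1) with a direction fixed by the filter, with sums of 1215.2 to 1258.3 FPKM in Max-KO libraries and 36.6 to 43.3 FPKM in WT libraries. The 6 markers of 2-cell-like cells summed to 38.0 to 53.2 FPKM in Max-KO libraries and 0 to 0.12 FPKM in WT libraries, and the direction of all 6 was fixed by the filter. Primitive endoderm markers summed to 44.6 to 59.8 FPKM in Max-KO libraries and 26.8 to 30.7 FPKM in WT libraries. Most of that was Lama1, which averaged 46.0 FPKM in Max-KO cells and 26.9 FPKM in WT cells. Of the 6 markers, 5 rose, 3 of them (Gata4, Pdgfra and Sox17) with a direction fixed by the filter, while Gata6 stayed under 1 FPKM. With quantile normalization Lama1 and Pdgfra kept their calls. Dab2, Gata4 and Sox17 lost theirs (limma adjusted p = 0.056, 0.168 and 0.368). Trophoblast markers summed to 31.3 to 38.9 FPKM in Max-KO libraries and 29.3 to 30.8 FPKM in WT libraries, and 4 of 6 rose, 3 of them (Elf5, Gata3 and Krt7) with a direction fixed by the filter. Tfap2c was not called (−0.30) and Cdx2 stayed under 1 FPKM. With quantile normalization Krt7 was at −0.11 and not called (limma adjusted p = 0.52), while Elf5, Gata3 and Hand1 kept their calls. Of the 7 feeder markers, Col1a2, Col3a1, Dcn, Lum and Postn were under 1 FPKM in all libraries, and the sums were 7.99 to 10.2 FPKM in Max-KO libraries and 7.95 to 8.33 FPKM in WT libraries. Col1a1, 1 of the 2 feeder markers tested, was higher in Max-KO cells (0.51, limma adjusted p = 0.00368), at 3.16 FPKM in Max-KO cells and 1.92 FPKM in WT cells, and was not called with quantile normalization (0.06, adjusted p = 0.632). The part of these other cell states in the fall of the translation factors was not tested.

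WT replicate 3 differed from the other WT libraries in several factors. Across all genes tested, its log2 values correlated with WT replicates 1 and 2 at 0.984 and 0.981. WT replicates 1 and 2 correlated with each other at 0.985. Of the 51 tested factors, 34 were highest and 13 lowest among the WT libraries in WT replicate 3. The same shares over all genes were not computed. The factors lowest in it were led by Eif5b (a deviation of −0.71 from the mean of the other WT libraries on the log2 scale), Eif3a (−0.52) and Eif4a2 (−0.40). Over the 51 factors, the deviation of WT replicate 3 had a Spearman correlation of −0.46 with exonic length, and −0.28 over the 12750 protein-coding genes tested. Its part in the results was not tested beyond leaving it out. Without it 42 factors fell and 5 rose, beside 3318 and 6102 of all 14684 genes then tested. The genotype difference itself had a correlation of 0.16 with exonic length in both gene sets.

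The RefSeq promoter table held windows for 42 of the 54 factors, each 300 bases long with 250 before and 50 after the start. Of their 54 windows, 13 held CACGTG (24.1%), beside 2349 of all 32851 windows (7.15%); CACGTG is its own reverse complement, so both strands are searched at once. By gene, 11 of 41 tested factors with a window held it (26.8%), beside 1190 of 9965 tested protein-coding genes (11.9%). They were Eef2, Eif1b, Eif3a, Eif3f, Eif3k, Eif4a1, Eif4e, Eif4g1, Eif4h, Eif5a and Eif5a2. Factors with the E-box in the window did not fall more often than the others in count: 8 of 11 fell with it (72.7%) and 22 of 30 without it (73.3%), with medians of −0.42 and −0.45. Over all tested protein-coding genes 29.0% fell with it and 25.0% without it, with medians of 0.08 and 0.16. Eif1b and Eif5a2, 2 of the 4 that rose, hold it, as does Eif5a, which fell the most with FPKM as deposited. Windows were not held for Eef1d, Eef1g, Eif2b3, Eif3e, Eif3h, Eif3i, Eif3j2, Eif4e1b, Eif4e3, Eif4ebp1, Eif4ebp3 and Eif4g2.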

How the data were processed

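RNA was sequenced from 3 Max-KO and 3 WT samples of embryonic stem cells, from Trizol-extracted total RNA with an Illumina TruSeq kit per the labels' protocols. The deposited values are FPKM per gene, as judged from the values, with the tools FastQC, HISAT2 2.1.0, RSEM and DESeq 1.26.0 and the build GRCm38.p6 named in the submitters' processing notes, without their role or order. Whether the libraries kept strand is not stated. All 55536 Ensembl identifiers matched GENCODE M21, and the 1153 assembled loci without a name did not enter the test.

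A gene was tested if its mean reached 1 FPKM in either group. Values were fitted as log2(FPKM + 1) by limma 3.58.1 under R 4.3.3, 2-sided, using trend and robust moderation, as Max-KO minus WT, with Benjamini-Hochberg adjustment over 14661 genes. A count test did not apply to FPKM. Differences understate the change of low genes on this scale, and FPKM is relative to the library. Depth was estimated from the steps between low values, of which 59.7% to 66.9% lay within 0.15 of a whole step; 30% would by chance for a step fixed beforehand, and counts were not rebuilt. The fit was checked on simulated data. Ratios of paralogs were compared by exact permutation tests with scipy 1.17.1, and pandas 2.3.3 and numpy 2.4.6 served for tables under Python 3.11.15.

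Values in every library are given, per complex, for the largest fall and the largest rise or smallest fall. They are also given for the paralogs and for members called against most of their complex. From each neighbouring list up to 3 called genes and 1 in the opposite direction are named. Others are named where a call was absent or lost. The members and lists were chosen with earlier results of these data known.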

Additional observations from a re-analysis of the deposited data

How the results depend on the processing

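Of the 51 tested genes, 20 changed their call or direction in at least 1 alternative and 30 in none of those run. The remaining gene, Eif4ebp3, kept its call wherever it was tested, which a filter at 5 FPKM did not allow. When a library was left out, 35 to 42 factors were lower and 4 to 5 higher, and their median was −0.50 to −0.45. Of all 14643 to 14722 genes then tested, 3082 to 3318 were lower and 5783 to 6102 higher. The median of all genes was 0.21 with FPKM as deposited, 0.04 with median-ratio scaling, 0.41 with TPM and −0.02 with quantile normalization.

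With median-ratio scaling the median of the factors was −0.65, eIF2 had 2 lower genes and eIF5 had 2, and the uncalled differences of Eif1ad (−0.11), Eif4e2 (−0.09) and Eif2b4 (−0.07) changed sign. After rescaling to TPM the median was −0.26 and 7 factors rose, beside 7883 of all 14661 genes. There eIF1 had 1 lower and 2 higher genes, eIF2B 1 higher, and eIF4 4 lower and 1 higher. Differences that changed sign were Eif2b2 (0.01), Eif4g2 (0.05), Eif2s1 (0.08) and Eif5 (0.11). With quantile normalization eIF1 had 1 lower gene, eIF4 had 4 lower and 1 higher, and eIF5 had 1 higher. The sign changed for Eif4g2 (0.10), Eif5 (0.01), Eif4a2 (0.05), Eif1ad (−0.01) and Eif3k (0.03). With a filter at 5 FPKM, the eIF4 regulators had 0 higher genes in limma because Eif4ebp3 was not tested. The cause of the other changes was not tested.

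Leaving out single libraries, eIF2 had 1 to 2 lower genes, eIF4 0 to 1 higher and eIF5 1 to 2 lower. Lower genes of eIF4 numbered 6 without Max-KO replicate 1 and 9 without WT replicate 3. Those of eIF3 numbered 12 and 14 in the same fits. Calls close to the threshold were lost for Eif3k without any 1 of the Max-KO libraries (limma adjusted p = 0.0509 to 0.0663), for Eif4g3 without Max-KO replicate 1 or 2 or WT replicate 1 or 2 (0.0731 to 0.077), for Eif4enif1 without Max-KO replicate 1 or 2 or WT replicate 2 (0.0557 to 0.0619) and for Eif4g2 without Max-KO or WT replicate 1 (0.0563 and 0.0623). Eif2s1 (−0.18, adjusted p = 0.0331) was called without Max-KO replicate 2, Eif2b2 (−0.29, 0.0303) without WT replicate 1, and Eif5 (−0.17, 0.0266) and Eif4e2 (0.13, 0.0243) without WT replicate 3. The Eef1a1 to Eef1a2 ratio difference was 0.73 with a pseudocount of 0.1 and −0.09 to 0.06 with a library left out, since Eef1a2 lies near 0.

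Same-numbered libraries did not deviate together (correlations −0.00, 0.02 and 0.09), so the numbers were not taken to pair them. With the replicate block 39 factors fell and 4 rose, beside 3282 and 6203 of all 14661 genes. There Eif4g3 lost its call (limma adjusted p = 0.0566) and Eif2b2 gained one (0.0236). Depth limits the low genes Eef1a2, Eif4e1b, Eif4e3 and Eif4ebp3.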
